A study of Mus musculus with 18 samples.

Results

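Nsd1-KO mESCs were compared with WT mESCs at day 0, before LIF and the feeder cells were withdrawn, in 6 of the 18 RNA-seq libraries of the study. These were taken by their labels alone: every library labelled as day 0 was used, 2 from WT, 2 from Nsd1-KO-1 and 2 from Nsd1-KO-2. The cells of all groups were E14 mESCs, a line from a male mouse blastocyst, kept in medium with 15% serum and LIF. The study's methods give growth on mitotically inactivated MEFs or on gelatin, and its RNA-seq legend names withdrawal of LIF and MEFs as the start of differentiation. KO-1 and KO-2 were homozygous for a deletion of exon 5 of Nsd1, made with a pair of guides in the flanking introns in E14 cells that already carried a Flag tag on Nsd1, and WT carried no deletion. Each KO line was 1 clone, so the replicates of a line were separate cultures of the same clone. Whether WT was the tagged or the parental line is not given in the sources used here, and a difference between KO and WT cannot be told apart from one between cells before and after cloning.

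NSD1 is a histone methyltransferase that places mono- and dimethyl marks on lysine 36 of histone H3. The dimethyl mark covers gene bodies and broad intergenic domains, limits the spread of the Polycomb mark on lysine 27, and is read by DNA methyltransferases. mESCs in serum and LIF keep a pluripotent state held by a transcription factor network around Oct4, Sox2 and Nanog, and LIF acts through its receptor and STAT3. The comparison at day 0 asked which genes differed in these self-renewing cells, before differentiation was started, and whether both clones shared the difference.

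Polyadenylated RNA was counted on 20703 genes, with 9644240 to 18263995 counts per library. The authors' values are variance stabilized (VST) and on a log2 scale, where a count of 0 is 8.359 and small counts are squeezed towards that value. Library values are given below as normalized counts, recovered from the VST values and not divided by gene length, and fold changes are differences of the VST values unless limma-voom, a fit on the recovered counts without this compression, is named. Replicates were closest in KO-2 and farthest in KO-1: over the 10351 genes above the median level, the SD of the difference between replicates was 0.08 in WT, 0.152 in KO-1 and 0.062 in KO-2 on the log2 scale. KO-1 replicate 1, the library with the fewest counts, stood apart, at 0.186 from both KO-2 libraries where KO-1 replicate 2 was at 0.091 and 0.092. WT and KO libraries were 0.274 to 0.333 apart. The 8 markers of embryonic stem cells were all expressed, and their summed normalized counts were 84077 to 86161 in WT and 77068 to 83173 in KO. None of the 8 was called by limma or by limma-voom, and 5 had an unadjusted p under 0.05 (limma), as had 39.4% of all genes.

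Nsd1 had 3374 and 3660.0 normalized counts in WT, 837 and 711 in KO-1, and 689 and 635 in KO-2. The 4 KO libraries lay well below both WT libraries (log2 fold change −1.69, SE 0.11, Benjamini-Hochberg adjusted p = 8.77e-10, limma). Here and below, limma took the 4 KO libraries as separate replicates, although they came from 2 clones. Its spread was estimated over all 18 libraries, including those of later days. The p-values therefore do not measure how far further clones or WT lines would differ. For Nsd1, Lefty2 and Tcf12 the adjusted p was far larger on the 6 day 0 libraries alone (limma). The counts are given per gene, so reads of the deleted exon were not separated from those of the other exons. The genes next to Nsd1 on chromosome 13 changed by less. Uimc1, Zfp346 and Fgfr4 on one side and Rab24, Prelid1 and Mxd3 on the other had log2 fold changes of −0.24 to 0.05, and none was called by limma or limma-voom, although Uimc1, Fgfr4 and Prelid1 were lower in all 4 KO libraries. Among the Y-linked genes, Kdm5d, a histone demethylase, stood at 16.8 and 14.4 in WT and at 559, 504, 323 and 391 in KO. Uba1y, a ubiquitin-activating enzyme, was at 164 and 176 in WT and at 585 to 683 in KO. Both rose (adjusted p = 1.15e-07 and 3.63e-10, limma), while Ddx3y, at 1006 and 1083 in WT and 922 to 1369.9 in KO, did not pass the test and Eif2s3y was lower in all 4 KO libraries by 0.25. Zfy2 had at most 2 counts in a WT library and 33.7 to 46.6 normalized counts in KO, a mean at least 9.24-fold higher than a floor of 3 counts per library.

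A total of 541 genes were called as DEGs between KO and WT, with the limits of 0.01 on the adjusted p and 0.58 on the size of the log2 fold change, which is 2.61% of the genes tested. Of these, 359 (1.73%) were higher and 182 (0.879%) lower in KO, with median log2 fold changes of 0.71 and −0.73. In every DEG all 4 KO libraries lay on one side of both WT libraries, as they did in 47.4% of all genes. The change exceeded 1 on the log2 scale in 56 of the higher and 24 of the lower genes. Nearly all DEGs (536) were protein coding, where 15985 of the 20703 genes tested were. The DEGs were abundant, with a median of 642 normalized counts against 84.5 over all genes, and the median was 181 in the calls of limma-voom. The VST scale compresses low counts, so the fold limit is harder to reach on it for weakly expressed genes. limma-voom called 1331 genes higher (6.43%) and 1421 lower (6.86%), and 539 of the 541 DEGs were called by it in the same direction. The share of calls that were higher was 66.4% on the VST scale and 48.4% by limma-voom, so the excess of rises was not seen by limma-voom. Without KO-1 replicate 1, 526 genes were called, 340 higher and 186 lower, and 495 of the 541 kept their call. In these bulk libraries, fewer cells of a type and less RNA per cell cannot be told apart.

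**Figure D1:**
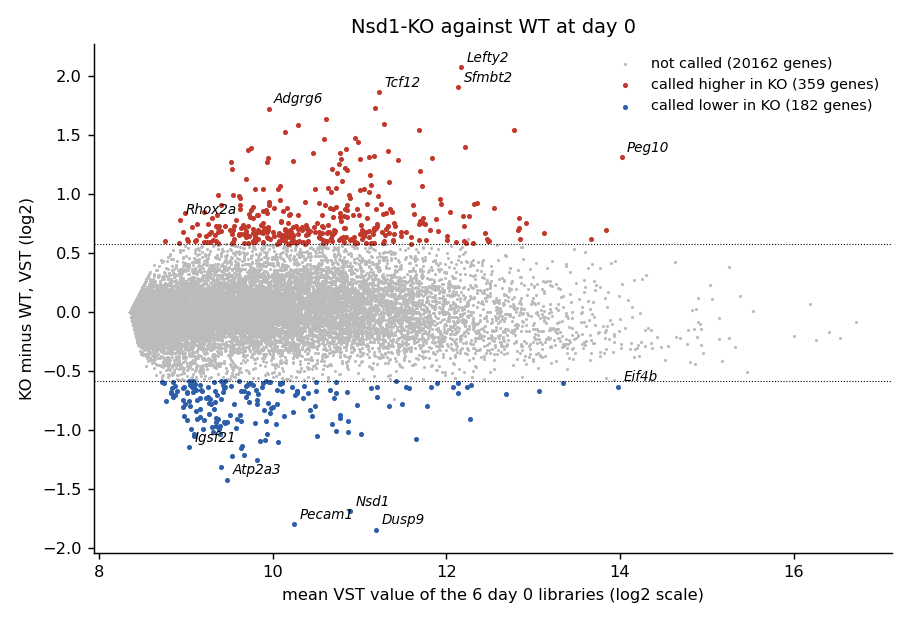
KO minus WT (difference of mean VST values, log2) against the mean VST value of the 6 day 0 libraries, with 1 point per gene, red for 359 genes called higher, blue for 182 called lower and grey for the rest, and dotted lines at the fold limit of 0.58. Calls are few at the left, where VST values near that of a count of 0 are compressed, and the most abundant calls are Peg10, which was higher, and Eif4b, which was lower.

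The 12 largest rises included secreted and surface proteins that guide cells or signal between them. Lefty2, a secreted inhibitor of Nodal, had 1157 and 1167 normalized counts in WT and 6633 to 6985 in KO. Nrp2, a co-receptor for semaphorins and VEGF, went from 496 and 468 in WT to 2615 to 3148 in KO, and Ntn1, the guidance cue netrin-1, from 456 and 449 to 1992 to 2396. Cdh2, which encodes N-cadherin, was at 99.8 and 87.8 in WT and at 965 to 1174 in KO. For these 4 genes the lowest KO library was above the highest WT library by more than the whole spread within either group, with log2 fold changes of 2.08 for Lefty2, 1.74 for Nrp2, 1.47 for Ntn1 and 1.53 for Cdh2 (adjusted p of at most 5.25e-10, limma). Adgrg6, an adhesion G protein-coupled receptor, was almost silent in WT, at 33.5 and 28.8, and reached 1012, 927, 823 and 818 in KO. Its change of 1.73 on the VST scale was 4.78 by limma-voom (SE 0.40), the largest of the 12 on that scale.

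The other large rises were of Lefty1, Sfmbt2, Tcf12, Slc27a2, Ckb, Ecpas and Nckap1l. Tcf12, an E protein that binds E-box DNA as a dimer, was at 463 and 457 in WT and at 3222, 2974, 2943 and 3071 in KO (log2 fold change 1.86, SE 0.06, adjusted p = 1.52e-13, limma). Its replicates were close and its change was large, and the related E proteins were not called: Tcf3 was lower in all 4 KO libraries by 0.28 and Tcf4 was at 673 to 816 in WT and 694 to 1076 in KO. Slc27a2, a fatty acid transporter and acyl-CoA synthetase, was at 224 in both WT libraries and at 1661 to 1727 in KO. Ckb, the brain creatine kinase, was at 2805 and 2831 in WT and 8549 to 10318 in KO, and Ecpas, a proteasome adaptor, at 569 and 670.4 in WT and 2732 to 3519 in KO. Nckap1l, the hematopoietic subunit of the actin-regulating WAVE complex, was higher in both clones but unequally, at 114 and 135 in WT, 1754 and 1579 in KO-1, and 855 and 869 in KO-2.

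Among the 12 largest falls, Dusp9, a phosphatase that removes phosphate from ERK kinases, had 4775 and 4864 normalized counts in WT, 919 and 812 in KO-1, and 997 and 1028 in KO-2 (log2 fold change −1.84, SE 0.07, adjusted p = 2.87e-13, limma). Pecam1, an adhesion molecule of endothelium that is also found on mESCs, fell from 2264 and 2085 in WT to 371 and 400.3 in KO-1 and 223 and 173 in KO-2. Igsf21, an immunoglobulin family adhesion protein of synapses, was at 404 and 308 in WT and between 11.5 and 16.1 in KO. It was the deepest fall of the 12 by limma-voom (−4.71, SE 0.31), although it ranked behind 8 others on the VST scale. Atp2a3, a calcium pump of the endoplasmic reticulum, fell from 785 and 807 to between 57.3 and 89.9, and Niban1, a stress-responsive protein, from 671 and 678 to between 53.2 and 68.8. Pipox, a peroxisomal oxidase of sarcosine and pipecolic acid, was at 771 and 673 in WT and 80.3 to 109.7 in KO, and Nmnat2, an NAD-synthesizing enzyme best known from axons, at 737 and 803 in WT and 118 to 141 in KO. Dsp, the desmosomal linker desmoplakin, Nav2, Fignl2, the piRNA pathway gene Mael and the RNA-binding protein gene Igf2bp3 completed the group, at log2 fold changes of −1.10, −1.21, −1.13, −1.25 and −1.09. Each of the 12 was lower in all 4 KO libraries.

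**Figure D2:**
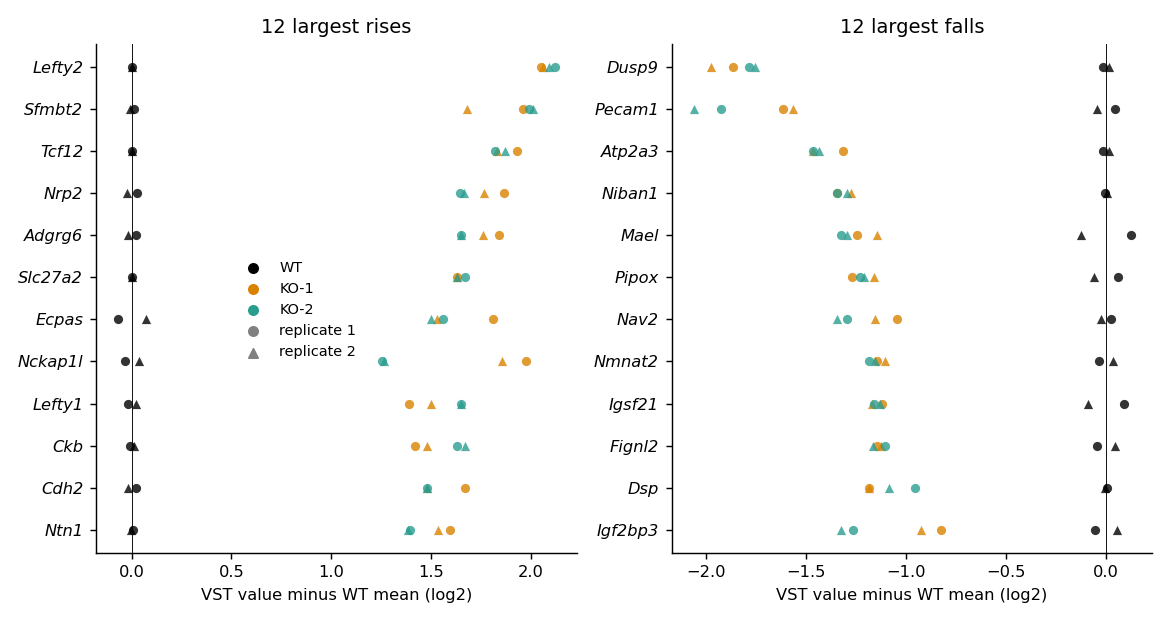
VST value of each day 0 library minus the mean of both WT libraries (log2) for the 12 largest rises, left, and the 12 largest falls, right, with WT in black, KO-1 in orange and KO-2 in teal, circles for replicate 1 and triangles for replicate 2. The clones overlap or lie near each other in most genes, and Nckap1l, Pecam1 and Igf2bp3 show KO-1 and KO-2 apart.

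Genes were then grouped in 36 lists by function, of which 74 genes in all were called. The counts of each list stand against the shares over all genes. These were 1.73% higher and 0.879% lower by limma, and 6.43% higher and 6.86% lower by limma-voom. The core pluripotency list had 0 of 12 genes called by limma and 0 by limma-voom, with 8 at an unadjusted p under 0.05, where 39.4% of all genes were, and a median log2 fold change of 0.07, against −0.003 over all genes. Pou5f1 (Oct4) was at 9073 and 9276 in WT and 6157 to 7260.1 in KO (log2 fold change −0.39, adjusted p = 0.00132, limma), Nanog at 8008 and 7928 in WT and 7037 to 7692 in KO. Sox2 was at 9653 and 9487 in WT and 11344 to 11674 in KO. For each of these genes the KO libraries lay on one side of both WT libraries, as in 47.4% of all genes. The differences were small and none reached the fold limit. That of Nanog did not pass the test (log2 fold change −0.11, adjusted p = 0.596, limma).

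Of 19 genes of naive pluripotency, 3 rose, 1 fell, and the median was 0.23, while limma-voom called 4 higher and 3 lower. Dppa3 (Stella), a maternal factor that protects DNA methylation marks in the zygote, rose most, from 92.3 and 79.1 in WT to 551, 801, 814 and 830.3 in KO (log2 fold change 1.28, SE 0.11, adjusted p = 1.86e-08, limma). Nr0b1 (Dax1), a nuclear receptor cofactor of mESCs, rose from 1215 and 1183 to between 1980.2 and 2552, and Fbxo15, a known target of Oct4, from 2505 and 2336 to between 4073 and 4196. The gene that fell was Pecam1. Genes of the formative and primed epiblast, the next stage of the embryo, also moved in both directions: 4 of 17 rose and 2 fell, with a median of −0.04. Zic2, a zinc finger transcription factor, was at 818 and 757 in WT and 2537 to 3392 in KO, its neighbour Zic5 at 854 and 673 in WT and 1324 to 1643 in KO, and Sfrp2, a secreted Wnt modulator, at 225 and 210.0 in WT and 529 to 608 in KO. Dnmt3b, a de novo DNA methyltransferase, was at 5743 and 6071 in WT and 9240.4 to 10153 in KO. Lef1 and Grhl2, an epithelial transcription factor, fell, the latter from 512 and 488 to between 35.5 and 116. Zic5 lost its call without WT replicate 2, with a log2 fold change of 0.54.

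Signalling lists held at most 5 calls each by limma. In the LIF and STAT3 list, 2 of 16 genes rose (5 higher and 1 lower by limma-voom) and the median was 0.25: Lifr, the LIF receptor, from 1292 and 1305 to between 2058 and 3014, and Junb, a target of the pathway, from 1139 and 1027 to between 1710.4 and 2238. In the FGF and ERK list, 3 of 20 rose and 1 fell, at a median of −0.07. The receptor Fgfr2 rose from 150.1 and 169.8 to between 606 and 709.8, the feedback inhibitor Spry2 from 1541 and 1578 to between 2539 and 3287, and the transcription factor Etv1 from 474 and 393 to between 1343 and 1513, whereas Dusp9, the ERK phosphatase, fell. Nodal and Activin genes had 2 rises and 1 fall among 21 by limma, at a median of 0.13, and 7 rises and 1 fall by limma-voom, at a median of 0.46. Both rises by limma were of the inhibitors Lefty1, at 994 and 1037 in WT and 3568 to 4416 in KO, and Lefty2, and the fall by limma was of the Activin subunit Inhbb, at 554 and 544 in WT and 177 to 214 in KO. The ligand Nodal itself was at 1245 and 1292 in WT and 853 to 1002 in KO, a log2 fold change of −0.31 that did not reach the fold limit. Lefty1 and Lefty2 are close paralogs, and how reads were split between them is uncertain.

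In the Wnt list 2 of 27 genes rose and 3 fell. Wnt7b, a ligand, rose from 157 and 181 to between 976 and 1092 (log2 fold change 1.28, SE 0.07, adjusted p = 2.18e-11, limma), and Notum, a secreted enzyme that inactivates Wnt ligands, from 50.3 and 34.5 to between 347 and 422. Fzd7, a Wnt receptor, fell from 2316 and 2236 to between 971 and 1314. Lef1, a transcription factor that acts with β-catenin, fell from 159 and 148 to 14.5, 21.3, 5.32 and 2.80, and Cdx1, a homeobox gene induced by Wnt, from 131 and 144 to 6.42, 1.64, 1.77 and 9.35. By limma-voom, which does not compress these low values, the log2 fold change was −4.15 for Lef1 and −5.09 for Cdx1. The BMP and Id list had 0 of 18 genes called by limma, 11 at an unadjusted p under 0.05 (39.4% over all genes), and 2 higher and 3 lower by limma-voom. Of 11 E proteins and partners, Tcf12 rose and Hes1, a repressor of neurogenic genes, was the 1 that fell, at 343 and 365 in WT and 99.6 to 154 in KO. On the VST scale the fall of Hes1 was at the fold limit (−0.58) and was not called without KO-1 replicate 1, KO-1 replicate 2 or WT replicate 2 (−0.56 in each). By limma-voom it was −1.56 and was called.

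Of the enzymes that write and erase H3K36 methylation, 1 of 14 was called: Nsd2, a paralog of Nsd1, had 1287 and 1309 normalized counts in WT and 2892, 2417, 2643 and 2407 in KO (log2 fold change 0.76, SE 0.10, adjusted p = 4.65e-06, limma). Polycomb genes were also mostly not called. PRC2, which methylates H3K27, had 0 of 13 genes called by limma or limma-voom and 6 at an unadjusted p under 0.05 (39.4% over all genes), and PRC1 had 3 of 26 genes higher and 0 lower by limma and 5 and 0 by limma-voom. Bmi1, a PRC1 subunit, was at 109.9 and 44.6 in WT and 273 to 364 in KO (limma-voom log2 fold change 2.04). On the VST scale it was not called without WT replicate 2 (0.55). Sfmbt1, at 253 and 249 in WT and 694 to 753 in KO, and Sfmbt2, at 1277 and 1246 in WT and 6602, 5334, 6766 and 6836 in KO, are MBT-domain proteins that act with Polycomb. In the DNA methylation list Dnmt3b was the 1 gene called of 20 (1 higher and 2 lower by limma-voom), and 0 of 22 genes of H3K9 methylation and heterochromatin were called by limma, with 8 at an unadjusted p under 0.05 and 1 lower by limma-voom. Among 64 histone genes, 1 rose: H1f0, a linker histone that marks slowly dividing and differentiated cells, from 1157 and 1088 to between 2178 and 2635.

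Germline genes changed in both directions. Of 58 measured genes of the germline list, 6 rose and 5 fell by limma, and 14 were higher and 15 lower by limma-voom, with a median log2 fold change of −0.05. Over all genes limma called 1.73% higher and 0.879% lower, and limma-voom 6.43% and 6.86%. The promoters of Rhox2a and Xlr3c, which went from near silence in WT to clear expression in KO, of Gm14569, which did the same, and of Mael and Stra8, which fell, are printed here because these genes changed from or towards low counts and the windows differ in their content of CG, the dinucleotide that DNA methyltransferases modify. Xlr3c and Gm14569 are X-linked DEGs and not members of the germline list. Each window holds 250 bases before to 50 bases after the RefSeq start of the gene, on the strand of the gene, with every CG in capitals. The build is GRCm38.p6, at chrX:37244742-37245041 (+) for Rhox2a, chrX:73265341-73265640 (−) for Xlr3c, chrX:36492586-36492885 (−) for Gm14569, chr1:166238695-166238994 (−) for Mael and chr6:34920698-34920997 (+) for Stra8.
Rhox2a: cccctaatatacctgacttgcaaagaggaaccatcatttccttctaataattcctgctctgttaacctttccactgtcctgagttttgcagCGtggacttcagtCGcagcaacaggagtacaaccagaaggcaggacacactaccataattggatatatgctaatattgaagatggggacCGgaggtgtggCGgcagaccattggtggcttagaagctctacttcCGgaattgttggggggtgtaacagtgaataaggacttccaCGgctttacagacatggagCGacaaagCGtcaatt
Xlr3c: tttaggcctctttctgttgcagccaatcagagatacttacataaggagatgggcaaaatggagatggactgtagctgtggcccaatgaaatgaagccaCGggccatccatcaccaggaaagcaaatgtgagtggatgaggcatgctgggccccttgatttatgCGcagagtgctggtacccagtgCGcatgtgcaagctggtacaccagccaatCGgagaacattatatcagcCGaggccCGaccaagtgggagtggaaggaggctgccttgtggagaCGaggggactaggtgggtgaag
Gm14569: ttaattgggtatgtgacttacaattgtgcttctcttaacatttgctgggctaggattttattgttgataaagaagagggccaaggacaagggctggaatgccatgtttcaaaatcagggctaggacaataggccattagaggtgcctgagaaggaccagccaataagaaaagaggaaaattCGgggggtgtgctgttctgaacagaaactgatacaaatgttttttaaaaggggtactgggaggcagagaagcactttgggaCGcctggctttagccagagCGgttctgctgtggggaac
Mael: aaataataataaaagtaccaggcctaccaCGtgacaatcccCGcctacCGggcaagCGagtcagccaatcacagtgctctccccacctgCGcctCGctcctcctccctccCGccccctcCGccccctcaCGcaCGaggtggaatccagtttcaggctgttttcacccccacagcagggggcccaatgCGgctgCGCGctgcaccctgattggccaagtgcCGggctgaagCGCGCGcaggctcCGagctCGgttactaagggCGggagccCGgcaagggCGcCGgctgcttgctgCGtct
Stra8: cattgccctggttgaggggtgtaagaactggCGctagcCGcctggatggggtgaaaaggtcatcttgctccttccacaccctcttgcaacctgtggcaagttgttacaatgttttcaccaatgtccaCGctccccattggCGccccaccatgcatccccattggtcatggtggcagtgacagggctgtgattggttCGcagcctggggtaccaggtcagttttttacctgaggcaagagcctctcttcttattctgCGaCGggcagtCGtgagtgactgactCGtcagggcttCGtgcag
The windows held 8 CG in Rhox2a, 7 in Xlr3c, 3 in Gm14569, 24 in Mael and 10 in Stra8, against a median of 7 over the first window of all genes. As the windows were picked after the values were seen and partly for their CG content, these counts do not compare rises with falls. The E-box CACGTG, searched on both strands, was in the window of Mael and in none of the other 4, and 7.15% of the 32851 RefSeq windows held it. The E2F motif GGCGGGA, on both strands, was there in 2 copies in Mael and in none of the others, and 11.3% of windows held it. Both motifs were chosen after the values were seen, and a match of letters does not show that a factor binds. A window was at hand for 408 of the 541 DEGs (75.4%) and 64.9% of all genes, and for want of the rest a comparison of CG content between all DEGs and other genes is void.

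The germline genes that rose included Sohlh2, a transcription factor of early germ cells, at 706 and 757 in WT and 2236 to 2365 in KO (log2 fold change 1.16, SE 0.07, adjusted p = 1.71e-10, limma), and Piwil2, which binds piRNAs, at 522 and 488 in WT and 1554 to 1916 in KO. Rnf17, a Tudor-domain protein of the same pathway, rose from 1060.1 and 1034 to between 1756 and 1995, and was not called without KO-1 replicate 1 (0.56) or WT replicate 2 (0.58). The other rises were the homeobox genes Rhox1, at 12.6 and 40.3 in WT and 178 to 248 in KO, Rhox5, at 650.0 and 541 in WT and 1063 to 1369 in KO, and Rhox2a. Further members of that X-linked cluster were higher in all 4 KO libraries without reaching the fold limit on the VST scale: Rhox6 by 0.33 and Rhox9 by 0.41, and limma-voom called both. The 5 genes that fell were Mael and Mov10l1, which act in piRNA biogenesis, Dmrt1, a transcription factor of the testis, Stra8, which starts meiosis, and Zcwpw1, a histone reader of meiotic recombination. Mael was at 1151 and 886 in WT and 153 to 218 in KO, and Mov10l1 at 438 and 445 in WT and 58.9 to 94.8 in KO. Stra8 was at 353 and 335 in WT and 28.9, 27, 10.6 and 31.8 in KO, Dmrt1 at 1197 and 1158 in WT and 324 to 576 in KO, and Zcwpw1 at 543 and 554 in WT and 202 to 224 in KO. The piRNA pathway thus had members in both directions, Piwil2 and Rnf17 higher and Mael and Mov10l1 lower.

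Genes of the two-cell-like state, a rare state in mESC cultures in which genes of the early embryo are active, had mostly lower values in KO. On the VST scale 0 of 20 were called, with 13 at an unadjusted p under 0.05 and 1 with a positive change, and limma-voom called 9 lower and 0 higher, with a median of −1.33 against −0.033 over all genes. Zscan4d, a marker of the state, was at 109 and 106 in WT and 41.8, 37.7, 49.7 and 49.6 in KO (limma-voom log2 fold change −1.27). Zscan4c was at 109 and 188 in WT and 43.5 to 68.8 in KO. The summed level of the 5 measured markers was 351 and 404 in WT and 120.4 to 157 in KO. The Zscan4 and Usp17 genes are families of near-identical copies, so the share of each copy is uncertain.

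Genes of the extracellular matrix were among the lists with most rises. Of 26 genes of collagens, laminins and integrins, 7 rose and 0 fell by limma, 12 rose and 0 fell by limma-voom, and the median was 0.42. Over all genes limma called 1.73% higher and 0.879% lower, and limma-voom 6.43% and 6.86%. The interstitial collagens Col1a1, at 1471 and 1493 in WT and 2455 to 2994 in KO, Col1a2, at 626 and 642 in WT and 1163 to 1326 in KO, and Col3a1, at 107 and 92.1 in WT and 284 to 371 in KO, rose, and so did the laminin chains Lama5 and Lamb1, by 0.62 and 0.61. The integrin Itga1, a collagen receptor, went from 15.1 and 8.63 in WT to 173, 124, 171 and 217 in KO, and Itgav, a receptor for vitronectin and fibronectin, from 626 and 662 to between 1103 and 1728. Most of these changes were close to the fold limit on the VST scale, and by limma-voom they ran from 0.67 (Lama5) to 3.72 (Itga1). Without KO-1 replicate 1, 4 of the 7 were called, and Lama5 (0.53), Lamb1 (0.56) and Itgav (0.56) were not. Col1a1 was not called without WT replicate 1 (0.67) or 2 (0.69), Lama5 without WT replicate 1 (0.63) or 2 (0.60), Itgav without WT replicate 1 (0.64), and Col1a2 without KO-2 replicate 2 (0.57).

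Fibroblast markers were measured beside this list, since the study names MEF feeders for its mESCs and both lists hold the collagens. Of 16 fibroblast markers 3 were called higher and 1 lower by limma, 6 and 1 by limma-voom, and their summed level was 4975 and 5056 normalized counts in WT and 7306 to 8506 in KO. Of the 16, 10 were higher in all 4 KO libraries than in both WT libraries and 1 was lower. Besides the called collagens, Col6a3 was at 114 and 122 in WT and 266 to 308 in KO, Fbn1 at 164 and 151 in WT and 271 to 363 in KO, Acta2 at 582 and 583 in WT and 838 to 1033 in KO, and Col5a1 at 849.6 and 868 in WT and 1113 to 1235 in KO. Others were near 0, level or lower. Lum was at 0 in all 6 libraries, Dcn between 0 and 10.6, and Twist2 between 0 and 6.54. Thy1 was at 299 to 377 in WT and 328 to 366 in KO, and Pdgfrb fell from 539 and 506 to between 152 and 206, while Prrx1, at 57 and 57.5 in WT, was at 156 to 203 in KO. The part of feeder cells in the collagen values was not tested.

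Genes of epithelial and mesenchymal states also split. Of 25 genes, 4 rose (Cdh2, Zeb1, Esrp1 and Ncam1) and 2 fell (Grhl2 and Krt19) by limma, and 8 were higher and 6 lower by limma-voom. Zeb1, a repressor of epithelial genes, rose from 400.0 and 394 to between 767 and 979.6, and was not called without KO-1 replicate 1 (0.55), and Esrp1, a splicing factor of epithelial cells, rose from 729.6 and 619 to between 1549 and 1612. Krt19, an epithelial keratin, fell from 339 and 296 to between 28.4 and 50.5. In the neuroectoderm list 3 of 19 rose and 1 fell. Nes, the intermediate filament of neural progenitors, was at 294 and 379.8 in WT and 674 to 1002 in KO, Tubb3, a neuronal tubulin, at 834 and 739 in WT and 2004 to 2395 in KO, and Ncam1, a neural cell adhesion molecule, at 632 and 604 in WT and 1459 to 2547 in KO. Neurod1, a proneural transcription factor, fell from 282 and 347 to 32.1, 30.3, 13.3 and 15.9. Nes was not called without WT replicate 1 (0.60). Sox1 and Pax6, which define early neural cells, were at most at 99.6 normalized counts in a library, and the neural marker list had 1 of 7 called in each direction.

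Of 20 meso-endoderm transcription factors named by the study, 1 was called and it fell: Nfatc2, from 231 and 214 to between 42.6 and 46.6. The list was chosen in the study on these cells and is not independent evidence of a direction. By limma-voom 6 were called lower and 0 higher. Markers of primitive endoderm had 0 of 12 called by limma, 4 at an unadjusted p under 0.05, and 3 lower by limma-voom (Gata4, Gata6 and Sox7). Gata4, at 113 and 127 in WT, was at 35.3 to 58.6 in KO. Markers of trophoblast had 0 of 9 and those of mesoderm and primitive streak 0 of 9 genes called by limma, with 3 and 5 at an unadjusted p under 0.05. limma-voom called 1 trophoblast marker in each direction and 0 of mesoderm, and of the 7 markers of primordial germ cells Dppa3 was the 1 called by limma. Mesoderm markers had low counts, which the VST scale compresses. T was at 11.7 and 31.7 in WT and 0 to 5.32 in KO (limma-voom log2 fold change −3.55). Eomes was at 107 and 99.3 in WT and 33.7 to 62.2 in KO (−1.3). Of these 9 markers, 3 were lower and 2 higher in every KO library than in WT. The study reports reduced basal expression of T and Gata4 after loss of Nsd1.

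Imprinted genes had 3 of 43 higher and 0 lower by limma, and 8 higher and 0 lower by limma-voom. Peg10, a retrotransposon-derived gene needed for the placenta, had the highest mean over the 6 libraries of any DEG, at 8214 and 8554 normalized counts in WT and 26757, 21244, 19867 and 20078 in KO (log2 fold change 1.32, SE 0.19, adjusted p = 2.00e-05, limma). As 4 of the 6 are KO libraries, this order is that of KO, and in WT Eif4b was more abundant than Peg10. The others called by limma were Sfmbt2 and Smoc1, a secreted matrix protein, which was at 633 and 583 in WT and 1122 to 1458 in KO. The other abundant DEGs changed by less. The translation initiation factor Eif4b fell from 20639 and 21321 to between 12846 and 14497, and Acly, which makes cytosolic acetyl-CoA, from 12899.6 and 13138 to between 7758 and 9821. G3bp2, a stress granule protein, rose from 9873 and 10092 to between 15932 and 18349.9, and Ywhag, a 14-3-3 protein, from 9126 and 9087 to between 13189 and 15978. Acly (−0.60) was not called without either KO-2 replicate (−0.56), and Ywhag (0.62) not without KO-1 replicate 1 (0.57).

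Cell cycle and metabolic lists held few calls. Among G1 cyclins and inhibitors 2 of 21 rose by limma and 6 by limma-voom. The 2 were Cdk6, from 458 and 378 to between 1061 and 1500.0, and Rb1, from 408 and 384 to between 896 and 971, a kinase and the retinoblastoma protein that it phosphorylates. Mycn, the 1 called of 12 genes of the Myc and Max network (3 higher and 1 lower by limma-voom), rose from 2312 and 2128 to between 3604 and 4853. In the glycolysis and hypoxia list Ldhb rose by 0.59 and 2 of 27 genes fell: Vegfa, at 1161 and 1055 in WT and 465 to 544 in KO, and Egln3, an oxygen-sensing hydroxylase, at 1734 and 1764 in WT and 424 to 729 in KO. Ldhb lost its call when either WT library, either KO-2 library or KO-1 replicate 2 was left out, at values of 0.55 to 0.62. Shmt2, a mitochondrial enzyme of serine metabolism, was the 1 of 21 genes of the integrated stress response called by limma, at −0.60, and was lost without KO-1 replicate 1 or WT replicate 1 (−0.57). In that list 2 of 21 genes had a positive change and the median was −0.20, and limma-voom called 7 lower and 0 higher, with a median of −0.38. Of 29 innate immune genes Ddx58, the RNA sensor RIG-I, rose by 0.65, and Ifitm1 by 0.64, but Ifitm1 was not called by limma-voom (adjusted p = 0.011) or when one of the same 5 libraries was left out (0.53 to 0.74). Junb was the 1 called of 17 immediate early genes by limma, whereas limma-voom called 2 higher and 5 lower.

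Lists with 0 calls by limma were Trp53 targets (24 genes, 11 at an unadjusted p under 0.05, 1 lower by limma-voom), cholesterol synthesis (23 genes, 14 and 2 lower) and Hox genes (32 genes, 8 and 3 lower). Cytosolic ribosomal proteins (88 genes, 31 at an unadjusted p under 0.05), mitochondrial ribosomal proteins (76 genes, 34) and the electron transport chain (84 genes, 36) had 0 calls too, and 1, 4 and 3 by limma-voom. Most of their genes had small negative changes: 3 of 88, 6 of 76 and 5 of 84 were positive, at medians of −0.25, −0.14 and −0.21 (−0.27, −0.30 and −0.35 by limma-voom). Clustered protocadherins (37 genes) had 0 calls by limma and 16 at an unadjusted p under 0.05, and limma-voom called 4, all higher, with a median of 1.11. Of 426 zinc finger genes 4 rose and 2 fell by limma, where 2.61% of all genes were called, and limma-voom called 34 higher and 19 lower. Zfp217, a transcriptional cofactor, fell from 1895 and 1949 to between 621 and 975. Zfp516 fell by 0.59, and Zfp36l2, an RNA-binding protein, Zfp518b, Zfp607b and Zscan5b rose by 0.63, 0.73, 0.65 and 0.60 on the VST scale. By limma-voom Zfp516 changed by −0.85 and these 4 by 0.95, 0.94, 2.24 and 2.16. Zfp516 was not called without WT replicate 1 (−0.57), Zfp607b without WT replicate 2 (0.52), and Zscan5b without WT replicate 1 (0.56).

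The X chromosome held a larger share of rises than any autosome. Of 773 X-linked genes, 44 (5.69%) were called higher and 3 (0.388%) lower, where autosomal genes were called higher in 1.58% and lower in 0.900%. Chromosome 14 came next, with 3.14% higher. limma-voom called 107 X-linked genes higher (13.8%) and 24 lower (3.10%), with a median log2 fold change of 0.223 against −0.041 over autosomal genes. On the VST scale the median was 0.039 over all X-linked genes, 0.051 in KO-1 and 0.043 in KO-2. Without KO-1 replicate 1, 43 X-linked genes were called higher. No test of the chromosome as a set was made.

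**Figure D3:**
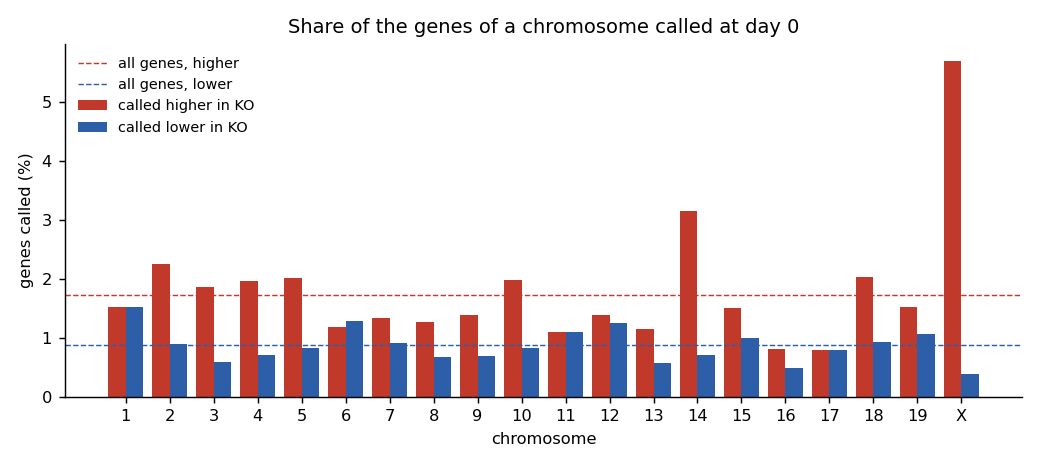
Share of the genes of each autosome and of X (%) called higher, red, or lower, blue, in KO at day 0, with dashed lines at the share over all genes (1.73% higher and 0.879% lower) and chromosomes named by gene from GENCODE. The bar for higher genes on X reaches 5.69%, that of chromosome 14 reaches 3.14%, and the other autosomes lie at or below 2.25%. Y, with 2 of its 17 genes called higher (11.8%), and the mitochondrial genome are not drawn.

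The X-linked rises named here were picked after their values were seen. Pcdh19, an adhesion protein of neurons, was at 38.6 and 28.8 in WT and at 721, 454, 709.8 and 632 in KO. Nexmif, which regulates neurite extension, was at 443 and 406 in WT and 1828 to 2176 in KO, and Pls3, an actin-bundling protein, at 656 and 699 in WT and 2411 to 2583 in KO. Clcn5, a chloride transporter, rose from 413 and 432 to between 1545 and 1966 and Rlim, the ubiquitin ligase Rnf12 that acts on X inactivation in female cells, from 3347 and 3392 to between 6288 and 7815. Pcsk1n, an inhibitor of a prohormone convertase, was at 434 and 355 in WT, 956 and 1876 in KO-1, and 2247 and 2351 in KO-2, so its KO-1 replicates were far apart. Kctd12b, at 21.8 and 17.3 in WT, was at 279 to 347 in KO, and Usp26, a deubiquitinase of the testis, at 219.7 and 278 in WT and 717 to 1129 in KO. The 3 X-linked falls were Dusp9, Dkc1, the RNA pseudouridine synthase dyskerin, from 5705 and 6232 to between 3559 and 4004, and Armcx2, from 1301 and 1436 to between 574 and 806. Dkc1 was not called without WT replicate 2 (−0.56).

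In 11 of the 44 X-linked rises the WT mean was under 50 normalized counts, as in 36 of all 359 rises. Rhox2a had 1.68 and 0 normalized counts in WT and 116, 215, 74.5 and 74.8 in KO, a mean at least 27.8-fold higher than a floor of 3 counts per library. Magea14, a member of a family expressed in testis and tumours, had 0 counts in both WT libraries and 67.5, 75.3, 53.2 and 43 normalized counts in KO, a mean at least 13.8-fold higher. These were the 2 DEGs with at most 3 counts in every library of one genotype. Gm14569 was at 5.03 and 2.88 in WT and at 185, 154, 61.2 and 78.5 in KO, and Nxf3, an RNA export factor, at 26.8 and 34.5 in WT and at 430.4, 363, 233 and 231 in KO. Xlr3c, a lymphocyte-regulated gene of a multicopy X-linked family, was at 14.3 and 11.5 in WT, 357 and 368 in KO-1, and 103 and 110.3 in KO-2. It was not called by limma-voom (adjusted p = 0.0613). Gm14569 (0.50) and Magea14 (0.55) were not called in KO-2 alone against WT, and Gm14569 was not called on the day 0 libraries alone. By limma-voom on the day 0 libraries alone, neither Gm14569 nor Rhox2a was called. Rhox2a, Magea14 and Xlr3c belong to families of close copies, and their reads could have been split among them.

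Few genes were called between the clones, which had 2 libraries each. The direct comparison of KO-1 with KO-2, a difference of KO libraries with the spread estimated over all 18 libraries, called 6 of 20703 genes (0.0290%), against 3057 at an unadjusted p under 0.05 and 33 calls by limma-voom. Fitted on the 4 KO libraries alone, limma called 0, with 1791 at an unadjusted p under 0.05. Of the 541 DEGs, 2 were called between the clones, Xlr3c and Nckap1l, both higher in KO-1. In 535 of the 541 (98.9%) the 95% interval of the clone difference on the VST scale lay within the fold limit of 0.58 in both directions, as it did in 99.4% of all genes. That scale compresses low counts, so an interval within the limit can go with a larger difference in counts. Gm14569, at 185 and 154 normalized counts in KO-1 and 61.2 and 78.5 in KO-2, had an interval of 0.22 to 0.49. The absolute clone difference had a median of 0.087 in the DEGs and 0.058 in all genes, and in a DEG it was a median of 11.5% of the KO effect and at most 75.7%, in Xlr3c. An adjusted p under 0.01 between the clones, with no limit on the fold, was found in 12 DEGs and 42 genes in all. Against WT, KO-1 alone had 599 DEGs (2.89%) and KO-2 alone 558 (2.70%), 2 comparisons that share the WT libraries. The smallest absolute log2 fold change of one of the 541 DEGs was 0.45 in KO-1 and 0.46 in KO-2. As the DEGs were chosen on both clones pooled, that choice favoured genes changed in each clone. These minima therefore do not test whether the clones agree.

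**Figure D4:**
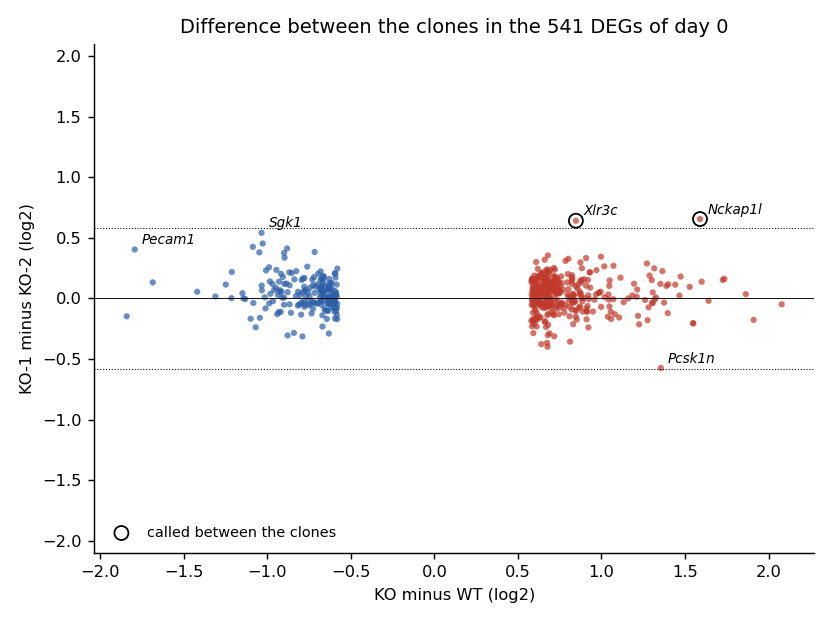
KO-1 minus KO-2 (log2) against KO minus WT (log2), both on the VST scale that compresses low counts, for the 541 DEGs. There is 1 point per gene, red for genes higher in KO and blue for lower, with dotted lines at 0.58 and −0.58, and circles around genes called between the clones. The points lie along the zero line at all sizes of the KO effect, and 2 genes, Xlr3c and Nckap1l, are called.

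The 6 genes called between the clones were all higher in KO-1. Nckap1l differed by 0.66 (95% interval 0.54 to 0.77, adjusted p = 3.04e-06, limma) and Xlr3c by 0.64 (0.53 to 0.76), on top of a rise over WT in both. Lama1, a laminin chain of basement membranes, was at 1486 and 1705 in WT, 2428 and 1873 in KO-1, and 1114 and 1211 in KO-2, so the clones lay on either side of WT. Sall3, a zinc finger transcription factor, had the same order, at 329 and 381 in WT, 619.9 and 514 in KO-1, and 243 and 227 in KO-2. Mcf2 was at 747 and 698 in WT, 1579 and 1309.8 in KO-1, and 779.9 and 781 in KO-2, and Runx1t1, a transcriptional corepressor, at 94.8 and 79.1 in WT, 401 and 305 in KO-1, and 126 and 108 in KO-2. For these 2 genes KO-2 was near WT. Without KO-1 replicate 1, 4 genes were called between the clones, and Lama1, Sall3, Mcf2 and Runx1t1 had differences of 0.50, 0.52, 0.49 and 0.49 and were not called. Without KO-1 replicate 2, 54 genes were called, 18 higher and 36 lower in KO-1, of which 5 were DEGs. Sall3 and Runx1t1 were not called without either KO-2 replicate (0.55 to 0.61).

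Several DEGs shared a direction in both clones but differed in size by less than the fold limit on the VST scale, which compresses low counts. In normalized counts the clones lay further apart: Igf2bp3 was at 331 and 282 in KO-1 and at 146 and 128 in KO-2. Pecam1 was higher in KO-1 by 0.40 (95% interval 0.29 to 0.51, adjusted p = 4.28e-04, limma), and so were A2m, a protease inhibitor, by 0.45, Igf2bp3 by 0.43, Ly75, an endocytic receptor, by 0.41, Egln3 by 0.38 and Nxf3 by 0.33. A2m was at 999.7 and 965 in WT, 374 and 354 in KO-1, and 159 and 172 in KO-2, and Ly75 at 1469 and 1541 in WT, 766 and 725 in KO-1, and 429 and 460.0 in KO-2. In all of these the replicates of a clone were closer to each other than to the other clone.

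The libraries of day 2 and day 4, which are other libraries of the same lines, were used to ask which DEGs of day 0 were called again after LIF withdrawal. Genes called higher in KO made up 4.01% of all genes at day 2 and 3.67% at day 4, and genes called lower 2.37% and 3.91%. Of the 359 DEGs higher at day 0, 233 (64.9%) were called higher at day 2 and 165 (46.0%) at day 4, and 3 and 17 were called lower. Of the 182 lower at day 0, 54 (29.7%) were called lower at day 2 and 46 (25.3%) at day 4, and 4 and 10 were called higher. By limma-voom 286 and 226 of the higher genes and 112 and 101 of the lower genes were called in the same direction. At all 3 days 136 genes were higher and 22 lower, while 85 of the higher and 91 of the lower genes were called at day 0 only. Of the 44 X-linked rises, 28 were called higher at day 2 and 26 at day 4, and 1 and 4 lower. Whether an effect differed between days was not tested.

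**Figure D5:**
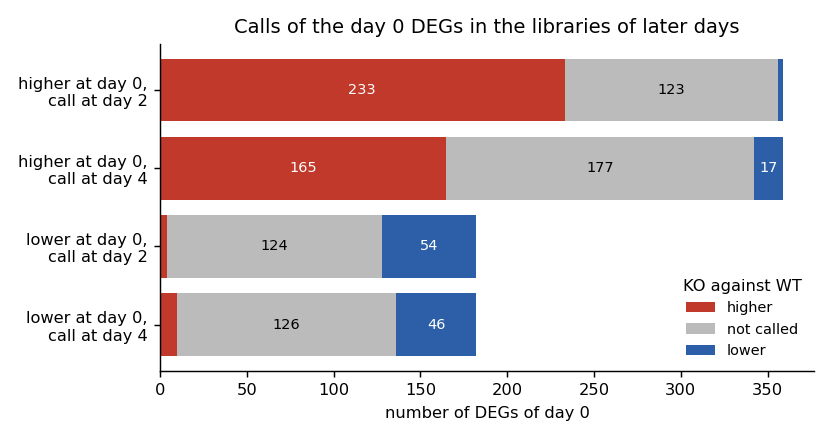
Number of the 359 DEGs higher and the 182 DEGs lower at day 0 that were called higher (red), lower (blue) or not called (grey) in KO against WT at day 2 and day 4. In the upper pair of bars 233 and 165 genes are red, and in the lower pair most genes are grey, 124 and 126 of the 182.

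Named genes took several courses. Slc27a2, Sohlh2 and Piwil2 were called higher at all 3 days, with log2 fold changes of 1.64, 1.81 and 2.38 for Slc27a2, 1.16, 2.95 and 3.85 for Sohlh2, and 1.11, 1.31 and 2.06 for Piwil2, at day 0, 2 and 4. Dusp9, Niban1, Zfp217 and Igf2bp3 were called lower at all 3 days. Some rises of day 0 were falls later: Nrp2 had log2 fold changes of 1.74, 1.21 and −1.09, Cdh2 of 1.53, 1.53 and −0.76, and Nes of 0.68, −1.09 and −1.39. Pecam1, Nav2, Pipox and Dmrt1 were the reverse, lower at day 0 and called higher at day 4, at 0.75, 0.79, 0.65 and 0.63. Nmnat2, Stra8, Neurod1 and Inhbb, lower at day 0, were not called at day 2 or day 4. Dnmt3b was higher at day 0 (0.67), lower at day 2 (−0.64) and higher at day 4 (1.62).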

How the data were processed

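RNA-seq of E14 mESCs was analysed from the table the authors deposited, which holds 20703 genes and 18 libraries. Its unit is log2: per the labels and the study's methods, the authors trimmed reads with Trim Galore 0.6.7, aligned them to mm39 with STAR 2.7.11a, counted them on exons with featureCounts 2.0.6, removed weakly expressed genes and deposited variance stabilized values of DESeq2 1.42.0. The transformation was inverted from the value of a count of 0 (8.359), and 100% of the values came out within 0.1 of a whole count. Most counts from 1 to 19 were even (71.9 to 77.0% of them per library), for a reason that is not known, so intervals of counts are not given.

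The main fit was limma 3.58.1 (R 4.3.3) with a trended prior on the VST values of all 18 libraries in 6 groups, both clones as 1 KO group, and p-values were adjusted by Benjamini-Hochberg over the whole table. Clones were compared in a fit of 9 groups. Every library was assigned to its group by its label, and 0 columns were left unassigned. limma-voom on the recovered counts, with the size factors of the authors, was the main alternative, and DESeq2 and edgeR were not run here. On simulated data with 20703 genes, the fit on VST values called 28% of 100 genes changed 2-fold and 79% of 100 changed 4-fold, limma-voom 82% and 100%, and 0 and 1 of 20503 unchanged genes were called. The simulated libraries were drawn independently with an assumed dispersion, and genes of very low level were not changed. They held no difference between clones or days and no deviating library, so these shares are not error rates of the real data. Lists are described by counts and medians, with no set test.

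The genes named are Nsd1 and the Y-linked genes, the 12 largest rises and falls, genes called between clones, DEGs with at most 3 counts in every library of one genotype, the 6 most abundant DEGs, called members of the lists and the 3 genes on each side of Nsd1. Zfy1, Usp9y and Uty of the Y-linked genes were higher in all 4 KO libraries and were not called by limma. The other X-linked genes, A2m, Ly75, Tcf3, Tcf4, Nodal, Pou5f1, Nanog, Sox2, Rhox6, Rhox9 and single markers were picked after their values were seen. So were the printed promoter windows and both promoter motifs. Members and lists were chosen with earlier results of these data known. Chromosomes came from GENCODE M21 for 20592 genes matched by identifier, and promoter windows from RefSeq on GRCm38.p6. Python 3.11.15 and matplotlib 3.10.9 made the figures. A further gene that differed between the clones is not reported here.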

Additional observations from a re-analysis of the deposited data

Results flagged for a closer look

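In 12 of 139 named genes, 1 of the 4 KO libraries lay far from the other 3, past the 95% limit of Dixon's test on the gap to the nearest as a share of the whole range of VST values, and chance gives this in about 1 group in 20. In 9 of the 12 the library was KO-1 replicate 1, the one with the fewest counts. It was the high library in Cdh2 (gap 0.988 of the range), G3bp2 (0.899), Eif4b (0.876), Nexmif (0.885), Dkc1 (0.883) and Rlim (0.856), and the low one in Mycn (0.954), Dppa3 (0.908) and Ldhb (0.884). In Sfmbt2 (0.859) KO-1 replicate 2 was low, in Zfp516 (0.851) it was high, and in Slc27a2 (0.908) KO-2 replicate 1 was high, all within genes whose KO libraries lay on one side of both WT libraries. The part of depth or sample handling in KO-1 replicate 1 was not tested.

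In 6 genes the effect differed between the clones by the direct limma test, always with higher values in KO-1: Nckap1l by 0.66, Lama1 by 0.65, Xlr3c by 0.64, Mcf2 by 0.59, Sall3 by 0.59 and Runx1t1 by 0.58 on the log2 scale. Fitted on the day 0 libraries alone, the same test called 0 genes, with 2339 at an unadjusted p under 0.05.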

How the results depend on the processing

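The count of DEGs was 541 and stayed between 525 and 599 under the alternatives that kept the VST scale and the fold limit, including each clone alone (599 and 558), quantile normalization (528) and centring on the median (551). It was 526 to 559 when each library was left out in turn. limma-voom called 2752 genes and, on the 6 day 0 libraries alone, 2649, a fit added after seeing the data. A fold limit of 1 left 80 genes and no limit gave 4063. Against WT by limma-voom, KO-1 had 2838 and KO-2 2643 calls. With libraries left out these counts were 517 to 842 for KO-1, the highest without KO-1 replicate 2, and 545 to 580 for KO-2. Between the clones 6 genes were called, but 0 with the 4 KO libraries alone and 0 with the 6 day 0 libraries alone, 33 by limma-voom, and 4 to 54 with libraries left out, 54 without KO-1 replicate 2. By limma-voom the DEGs lower at day 0 and again later were 112 at day 2 and 101 at day 4, X-linked rises 107 and called genes of the lists 228. The causes of these differences were not tested beyond the compression of low values, which limma-voom lacks. Of the values of named genes under alternatives, 2213 kept their status as called or not called, 102 lost a call, 8 gained one and 0 reversed. Many of these genes were named because they were called in the main fit.

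Replicate numbers did not pair the libraries: the correlation of replicate differences was −0.233 between WT and KO-1, −0.004 between WT and KO-2 and −0.002 between the clones, and nothing in the labels ties a number to a shared batch. With a replicate block 540 DEGs and 6 clone differences were called, 599 for KO-1 and 558 for KO-2. Depth of 9644240 to 18263995 counts limits weakly expressed genes most.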
